A study of Mus musculus with 7 samples.

Results

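The comparison described here set the tumor RNA of mice given DC101, a blocking antibody against mouse VEGFR2, against that of mice given vehicle. It uses 2 of the 7 libraries of the series, 1 library a group, and 13997 of the 21892 gene symbols listed, those with a mean of at least 1 TPM (transcripts per 1000000, an abundance scaled for gene length and library size) over the 7 libraries. The tumors, which carried exon 19 deletions of Egfr, grew subcutaneously and were passaged in C57BL/6 mice, and the labels give their tissue as lung tumor. Every day 21 group first received gefitinib, an inhibitor of the EGFR kinase, for 14 days. For the next 7 days 1 group received vehicle (its treatment field records no treatment), 1 received DC101, 1 received 4H2, an antibody against PD-1 as the series title has it, and 1 received DC101 and 4H2 together, here called the combination. The other libraries come from day 3 without gefitinib and from days 3 and 14 of gefitinib. The number of animals behind a library was not stated in the labels. No group has a replicate, so no test was made, and each difference below is one between 2 libraries, given as log2((TPM + 1) / (TPM + 1)), DC101 over vehicle. In the text, higher and lower describe these values and carry no test.

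VEGFR2, encoded by Kdr, is the main signalling receptor for VEGF-A on endothelial cells. Its activation drives the sprouting of new vessels, led by tip cells that express Dll4, Apln and Esm1 and restrain their neighbours through Notch. Blocking it thins tumor vessels, and vessels that persist are covered by pericytes and basement membrane. In bulk tumor RNA, fewer endothelial cells and less RNA per endothelial cell cannot be told apart.

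Across all genes, 437 of 13997 were at least 2-fold higher with DC101 (3.12%) and 156 were at least 2-fold lower (1.11%). The median over all genes was -0.05. At 1.5-fold, 863 genes were higher (6.17%) and 666 lower (4.76%); 40.1% of all genes lay above 0 and 58.2% below. The highest differences were those of skeletal muscle genes. The lowest of the named genes were Pyy, Krt17, Moxd1, Prnd, Tnc and Igfbp3.

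**Figure D1:**
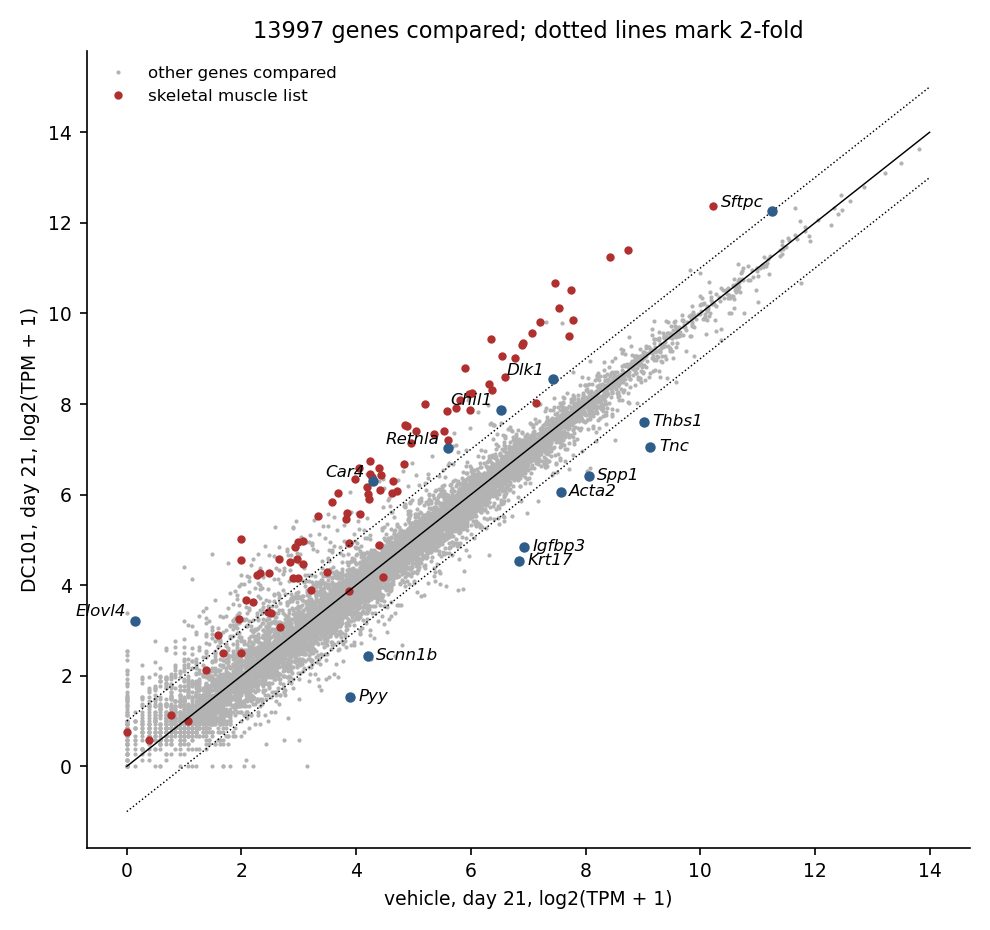
Level of each of the 13997 genes compared in the vehicle library (x axis) and the DC101 library (y axis), both as log2(TPM + 1) at day 21; red points are the skeletal muscle list, blue points are the 14 genes labelled, the solid line marks equal levels and the dotted lines mark 2-fold. Red points lie above the upper dotted line for 73 of the 89 muscle genes, and the labelled lower genes lie below the lower one.

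The labelled tissue was checked against marker genes. Epithelial markers were abundant in both libraries: the 5 genes Epcam, Krt8, Krt18, Krt19 and Cdh1 summed to 5924 TPM with vehicle and 3837 TPM with DC101. The surfactant and lysosomal genes of alveolar type 2 cells Sftpc, Sftpb, Sftpd and Lamp3 summed to 12888 TPM with vehicle and 14474 TPM with DC101. None of these 9 markers was listed at 0 in either library. Egfr itself was at 447 TPM with vehicle and 538 TPM with DC101, a difference of 0.27. The 4H2 and combination libraries held far less epithelial RNA, with Epcam at 3.0 and 20.8 TPM against 332 with vehicle and 407 with DC101.

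Skeletal muscle RNA differed between the libraries compared and is given first because it touches the higher side. The 89 listed muscle genes made up 0.543% of all TPM with vehicle and 2.77% with DC101. They made up 13.1% with 4H2 and 13.1% in the combination, and between 0.0651% and 0.676% in the 3 earlier libraries. With DC101, 73 of the 89 were at least 2-fold higher and none lower, with a median of 1.95. Ckm, the muscle creatine kinase, was at 345 TPM with vehicle and 2416 TPM with DC101 (2.81). Myh4, a fast myosin heavy chain, was at 177 and 1619 TPM (3.19), and Mstn, the secreted inhibitor of muscle growth, was at 1.0 and 20.2 TPM (3.41). Of the 15 highest named genes, 10 were on the muscle list, and the other 5, Mstn, Dhrs7c, Mylk4, Mlf1 and Ky, are also known from striated muscle.

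Fat genes moved with muscle. Of 16 adipocyte genes compared, 10 were at least 2-fold higher and none lower, with a median of 1.14. Adipoq, the adipocyte hormone adiponectin, was at 3.1 TPM with vehicle and 8.5 TPM with DC101, and in the muscle-rich 4H2 and combination libraries it was at 31.3 and 33.4 TPM. Car3, a carbonic anhydrase of muscle and fat, was at 159 and 893 TPM (2.49). Hair and skin genes were higher as well, 8 of 13 by at least 2-fold, but 5 of their defining markers, Krt71, Tchh, Krt1, Krt10 and Lor, summed to only 2.4 TPM with vehicle, where 1 of them was listed at 0, and to 18.2 TPM with DC101. Nuclear genes of the respiratory complexes, which mitochondria-rich tissue expresses strongly, were above 0 in 25 of 25 cases with a median of 0.28, and none reached 1.5-fold.

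As an alternative, an amount of RNA scaled to the muscle gained was subtracted from every gene of the DC101 library: the larger of its 4H2 and combination levels, each multiplied by the gain in muscle share over that library's muscle share. This subtraction was chosen after seeing the data, and it removes all RNA of those libraries in that proportion, not only that of muscle. It can lower a difference or leave it unchanged, but cannot raise one. The DC101 library was not scaled back to its former total, so a gene at equal levels in all libraries also falls below 0. For single genes, values after the subtraction are given only where the difference was above 0. Of the 437 higher genes, 58 were still at least 2-fold higher. They still held genes known from muscle, Tnnc2 (1.13) and Actn3 (1.12) on the muscle list and Dhrs7c (1.20), Mrln (1.17) and Cav3 (1.03) besides. The median of the muscle list, however, became -0.77, with Myh2 at -4.88 and Pvalb at -1.04. The subtraction thus left part of the difference for some muscle genes and took away more than all of it for others. The median of the adipocyte list became -0.11 and that of the respiratory genes -0.18. Rescaling TPM without the muscle genes left 138 genes at least 2-fold lower, and values below are as deposited.

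**Figure D2:**
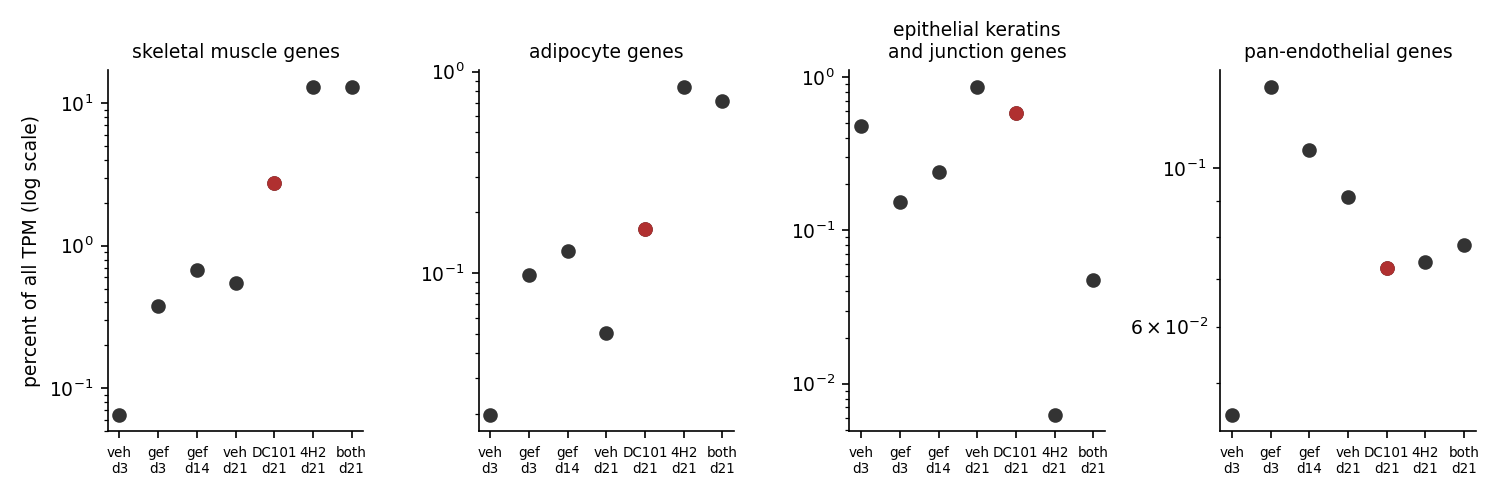
Share of all TPM held by 4 gene lists in each of the 7 libraries (x axis; y axis in percent on a log scale, different in each panel), with DC101 in red and 1 point for each library. The DC101 library lies between vehicle and the 2 libraries with 4H2 for muscle, fat and keratin genes and just under them for endothelial genes.

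Genes of the VEGF system came first among the vessel genes. Kdr, the target itself (chromosome 5, 75932827 to 75979072, GRCm38.p6), was at 19.6 TPM with vehicle and 11.4 TPM with DC101, a difference of -0.73. Flt1, the decoy-like receptor VEGFR1, was at 16.4 and 9.8 TPM (-0.69), its lowest level of the 7 libraries, and Flt4, the receptor VEGFR3 of lymphatic and sprouting vessels, was at 8.2 and 3.1 TPM (-1.17). All 3 receptor genes were thus lower with DC101. Among the ligands, Vegfa was at 66.5 and 52.4 TPM (-0.34), Pgf at 3.0 and 1.7 TPM (-0.57), and Vegfc, the ligand of VEGFR3, at 3.1 and 0.7 TPM (-1.27). Vegfd, at 3.4 and 4.5 TPM (0.32), and Vegfb, at 57.4 and 89.2 TPM (0.63), were the ligands on the higher side. Vegfb was also at 176 and 162 TPM in the muscle-rich 4H2 and combination libraries, and after the muscle subtraction its difference was 0.04. The co-receptors Nrp1, at 47.3 and 59.6 TPM (0.33), and Nrp2, at 32.7 and 35.9 TPM (0.13), did not share the direction of the kinase receptors. After the muscle subtraction, which cannot raise a difference, Nrp1 was at -0.08. Over the 10 genes, 2 were lower by 2-fold or more and none was higher by as much, with a median of -0.45. Among the members with a mean of at least 5 TPM, which leaves out Vegfc, Pgf and Flt4, the median was 0.13.

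Tip cell and VEGF-induced genes stood on the same side. Of 15 compared, 14 were below 0 and 4 at least 2-fold lower, with a median of -0.57. Igfbp3, an IGF-binding protein made by activated endothelium and tumor cells (chromosome 11, 7206086 to 7215498), was at 120 TPM with vehicle and 27.9 TPM with DC101 (-2.07). Over the libraries of day 3 and of gefitinib it lay between 70.3 and 162 TPM, and with 4H2 and the combination it was at 75.8 and 42.3 TPM, so that DC101 held the lowest value. Dll4, the Notch ligand of tip cells, was at 14.0 and 5.4 TPM (-1.23), Nid2, a linker of basement membranes, at 35.2 and 12.7 TPM (-1.40), and Trp53i11 at 23.3 and 9.0 TPM (-1.28). Next came the guidance receptor Unc5b, at 23.4 and 11.4 TPM (-0.98), the laminin chain Lama4, at 48.0 and 27.3 TPM (-0.79), and the proteoglycan Esm1, at 1.4 and 0.3 TPM (-0.88). Esm1 is induced by VEGF in tip cells, and its level was low in both libraries compared.

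Smaller differences were seen in the rest of the list. Nid1 was at 106 and 71.7 TPM (-0.55), Aplnr, the apelin receptor, at 35.2 and 23.9 TPM (-0.54), and Cxcr4, a chemokine receptor, at 48.7 and 36.7 TPM (-0.40). The potassium channel subunit Kcne3, at 1.0 and 0.4 TPM, did not pass the filter on low values and was not compared. Robo4 was at 15.6 and 12.4 TPM (-0.31), Angpt2, the vessel-destabilizing angiopoietin, at 8.4 and 7.0 TPM (-0.23), and Plvap, the diaphragm protein of fenestrated vessels, at 202 and 183 TPM (-0.14). The exception was Apln, the apelin ligand, at 53.8 TPM with vehicle and 121 TPM with DC101 (1.16). The day 3 vehicle library held 227 TPM of Apln, and the 4H2 and combination libraries held 17.8 and 12.0 TPM, so its level did not follow the other genes of the list across libraries. Of the 15 genes, DC101 held the lowest level of the 7 libraries in 4, against 604 of the 13997 genes compared (4.32%). Such a gene is below 0 by definition, as 14 of these 15 and 8140 of all genes were.

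Arterial and Notch genes were below 0 in 11 of 11 cases, with a median of -0.54, 3 of them at least 2-fold. Notch4, the Notch receptor of endothelium (chromosome 17, 34564286 to 34588543), was at 19.8 TPM with vehicle and 8.2 TPM with DC101 (-1.18). It was at 19.3 TPM with 4H2 and 11.0 TPM in the combination, so it was lower in both libraries with DC101 than in their counterparts without it. Heyl, a Notch target of the vessel wall, was at 5.7 and 2.1 TPM (-1.11), Fbln5, an elastic fibre protein, at 12.9 and 5.8 TPM (-1.03), and Efnb2, the arterial ephrin, at 10.6 and 6.3 TPM (-0.67).

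Pan-endothelial genes showed smaller differences. Of 30, 23 were below 0, 8 at least 1.5-fold lower and 1 at least 2-fold lower, with a median of -0.29. The 4 lowest were Myct1, at 7.0 and 2.8 TPM (-1.07), the adhesion molecule Icam2, at 11.8 and 5.7 TPM (-0.93), Ecscr, a regulator of endothelial migration, at 27.9 and 14.7 TPM (-0.88), and Gpihbp1, the capillary anchor of lipoprotein lipase, at 17.3 and 9.5 TPM (-0.80). Other endothelial identity genes were higher: Cd34 was at 48.6 and 57.0 TPM (0.23), Vwf, the clotting factor of endothelial granules, at 23.9 and 29.5 TPM (0.29) and Clec14a at 3.2 and 4.9 TPM (0.49). After the muscle subtraction, which cannot raise a difference and is not given for the lower genes, Cd34 was at -0.20 and Vwf at -0.02. The 6 markers Pecam1, Cdh5, Tek, Tie1, Emcn and Erg summed to 225 TPM with vehicle and 156 TPM with DC101. Genes of venules and leukocyte adhesion had a median of -0.08, close to that of all genes. Lymphatic vessel genes had a median of -0.47 over 8 genes, 6 of them below 0. Against it, Lyve1 was at 4.7 and 8.0 TPM (0.66) and Ccl21a at 10.5 and 22.2 TPM (1.01).

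**Figure D3:**
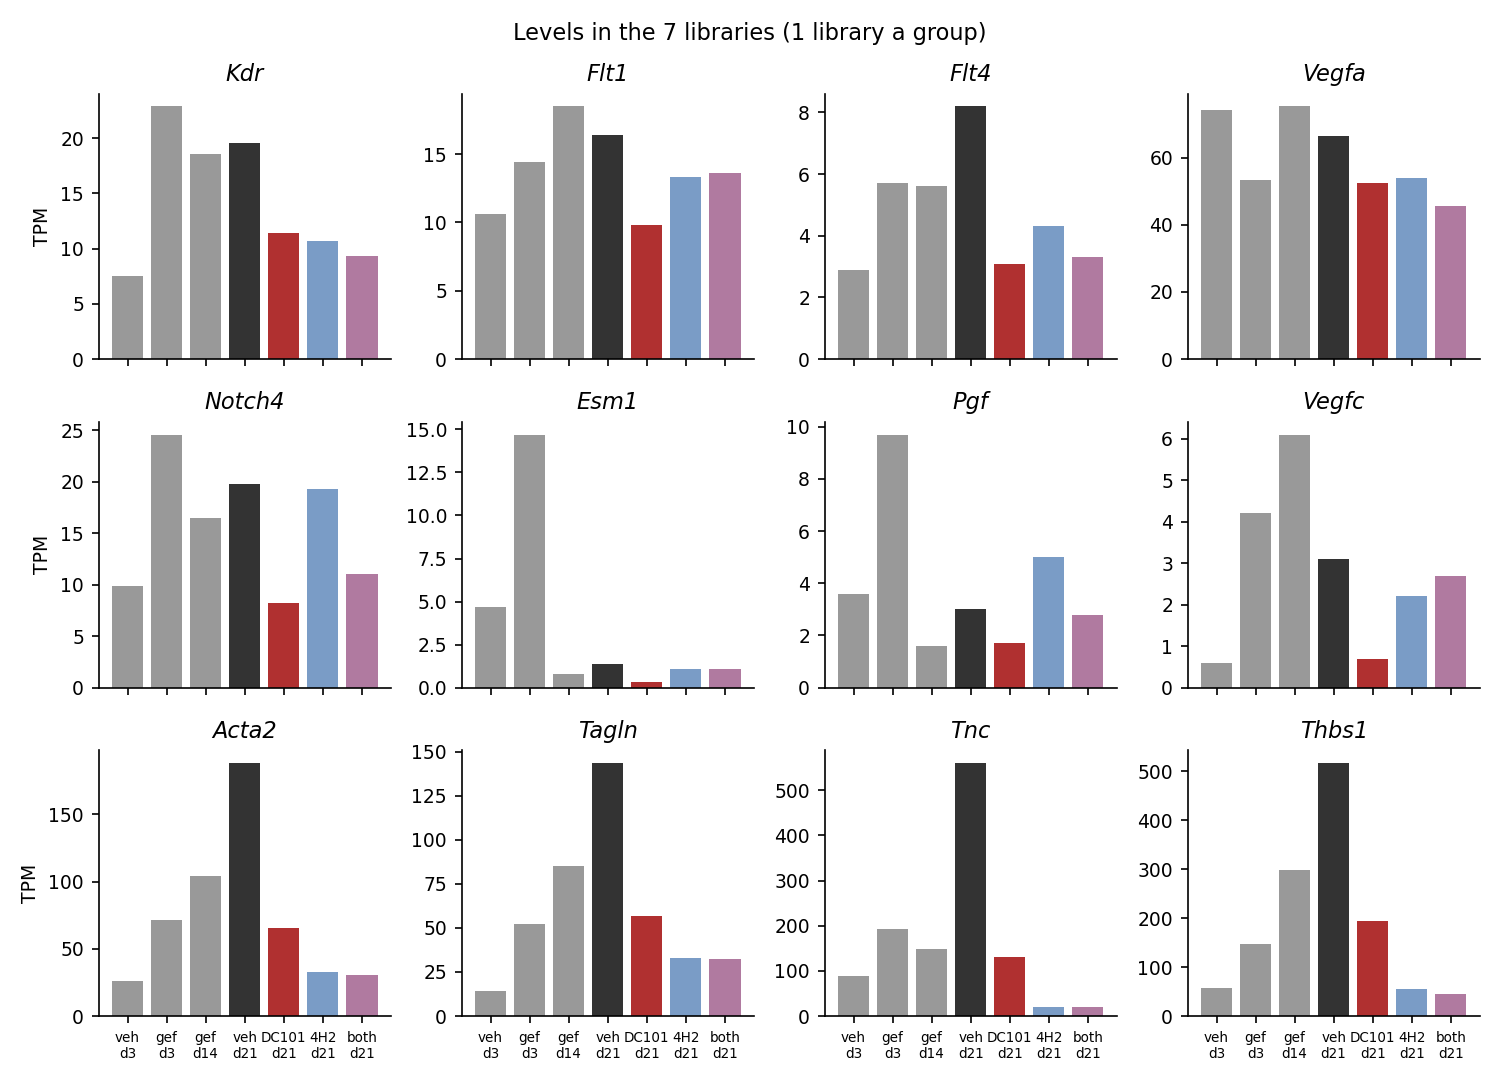
TPM of 12 genes of the VEGF system, vessels, vessel wall and matrix in the 7 libraries (1 bar for each library; veh, vehicle; gef, gefitinib; both, the combination; d, day); each panel has its own axis from 0. The red DC101 bar is lower than the black day 21 vehicle bar in every panel, and for Acta2, Tagln, Tnc and Thbs1 the vehicle bar is the highest of the 7. The VEGF and tip cell genes that were higher with DC101, Vegfb, Vegfd, Nrp1, Nrp2 and Apln, are not among the panels.

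Contractile genes of pericytes and smooth muscle were among the lowest of all. Acta2, smooth muscle actin (chromosome 19, 34240336 to 34255585), was at 188 TPM with vehicle and 65.7 TPM with DC101 (-1.504). Tagln, an actin-binding protein, was at 144 and 56.8 TPM (-1.32), Actg2, the enteric smooth muscle actin, at 11.2 and 3.1 TPM (-1.57), and Mcam, an adhesion molecule of pericytes and endothelium, at 88.8 and 40.0 TPM (-1.13). These 4 were at least 2-fold lower, out of 16 genes with a median of -0.33. The 2 at least 2-fold higher, Des (208 and 724 TPM) and Lmod1 (3.2 and 8.6 TPM), are also made by striated muscle, and with 4H2 Des was at 3063 TPM. Acta2 was at 26.2, 71.1 and 105 TPM in the 3 libraries before day 21 and at 33.0 and 30.2 TPM with 4H2 and the combination. The vehicle library of day 21 was thus the high one, and DC101 lay within the range of the others.

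Several genes that serum response factor (SRF) and its actin-regulated cofactors are known to drive were lower as well. They were chosen after their values were seen. Myl9, a myosin light chain, was at 95.1 and 41.6 TPM (-1.17), Fhl2, a LIM protein, at 39.9 and 17.4 TPM (-1.15), and Vcl, vinculin of focal adhesions, at 177 and 103 TPM (-0.78). All 3 were highest of the 7 libraries in the day 21 vehicle library. SRF binds the CArG box, and these 3 promoters are shown because each holds 1 such match in the 250 bases before the annotated start of transcription. The sequences are from RefSeq on GRCm38.p6, written 5′ to 3′ on the strand of the gene, and the capitals mark the CArG box.
Myl9 (chr2:156775214-156775463, plus strand): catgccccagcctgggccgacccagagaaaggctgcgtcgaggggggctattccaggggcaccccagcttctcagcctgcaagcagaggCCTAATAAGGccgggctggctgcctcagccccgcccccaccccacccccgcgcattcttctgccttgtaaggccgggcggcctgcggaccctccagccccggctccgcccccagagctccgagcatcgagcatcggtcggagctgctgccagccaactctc
Fhl2 (chr1:43196762-43197011, minus strand): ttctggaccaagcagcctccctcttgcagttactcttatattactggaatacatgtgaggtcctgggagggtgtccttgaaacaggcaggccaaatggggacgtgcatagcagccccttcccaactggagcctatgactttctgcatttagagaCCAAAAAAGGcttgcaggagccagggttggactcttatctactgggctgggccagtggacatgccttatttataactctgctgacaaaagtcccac
Vcl (chr14:20929148-20929397, plus strand): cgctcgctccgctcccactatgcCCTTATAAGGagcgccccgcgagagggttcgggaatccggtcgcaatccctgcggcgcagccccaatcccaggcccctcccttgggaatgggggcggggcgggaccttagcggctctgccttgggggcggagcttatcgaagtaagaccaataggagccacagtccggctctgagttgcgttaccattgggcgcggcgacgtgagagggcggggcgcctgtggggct

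The match begins 161 bases before the start in Myl9, 96 in Fhl2 (the upstream one of its 2 promoter entries) and 227 in Vcl. Of the 10608 compared genes with a promoter entry, 153 held a CArG box in that window on either strand (1.44%), a palindromic pattern, so that both strands are read at once. Of the 156 genes at least 2-fold lower with DC101, 97 had an entry and 4 of these held one: Fhl2, Itgb6, Myl9 and Hpx (4.12%). A match describes these letters and does not show that the factor binds there.

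Matrix and matricellular genes were lower over a wide range of levels. Tnc, tenascin C of wounds and invasive tumor margins (chromosome 4, 63959785 to 64047015), was at 560 TPM with vehicle and 131 TPM with DC101 (-2.09). Before day 21 it lay between 88.8 and 192 TPM. Spp1, the secreted phosphoprotein osteopontin, was at 266 and 83.8 TPM (-1.65), and Cthrc1, a secreted protein of activated fibroblasts, at 46.2 and 14.9 TPM (-1.57). Fn1, fibronectin, was at 1315 and 681 TPM (-0.95). Basement membrane genes as a list had 13 of 15 members below 0 and a median of -0.41, with Hspg2, the proteoglycan perlecan, at 263 and 173 TPM (-0.60). The collagen IV chains differed less: Col4a1 was at 646 and 533 TPM (-0.28) and Col4a2 at 492 and 377 TPM (-0.38).

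Matricellular and TGF-beta family genes followed. Cyr61, a secreted target of YAP and SRF, was at 365 and 147 TPM (-1.30), Ctgf, its relative, at 117 and 57.2 TPM (-1.02), and Inhba, the activin A subunit, at 8.0 and 2.7 TPM (-1.28). Those 3 were the members of the 20 TGF-beta genes at least 2-fold lower, and the list median was -0.31. The thrombospondins, chosen after their values were seen, were at 517 and 194 TPM (Thbs1, -1.41) and at 269 and 95.0 TPM (Thbs2, -1.49). Matrix proteases and their inhibitors had a median of -0.42 over 18 genes, led by the aggrecanase Adamts4, at 34.1 and 12.5 TPM (-1.38), and followed by the inhibitor Timp1, at 169 and 85.5 TPM (-0.97), and by Mmp9, at 48.2 and 25.2 TPM (-0.91).

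Fibroblast genes were mostly lower. Of 20, 15 were below 0 and 4 at least 1.5-fold lower, with a median of -0.36. Fbln2 was at 327 and 188 TPM (-0.80), Mfap5, a microfibril protein, at 85.9 and 50.0 TPM (-0.77), and Postn, periostin, at 222 and 138 TPM (-0.68). Dpt, dermatopontin, was the one gene at least 2-fold higher, at 44.5 and 91.9 TPM (1.03), and Pi16, known from adventitial fibroblasts, was at 36.2 and 67.4 TPM (0.88). Dpt was at 145 and 241 TPM, and Pi16 at 50.7 and 82.7 TPM, with 4H2 and the combination, and after the muscle subtraction the differences were 0.20 for Dpt, which was then no longer 2-fold higher, and 0.55 for Pi16.

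Epithelial genes differed among themselves. In bulk tumor RNA the amount of each kind of epithelium and its expression cannot be told apart. Simple keratins were lower, with Krt8 at 1731 TPM with vehicle and 1024 TPM with DC101 (-0.76) and Krt7 at 944 and 535 TPM (-0.82). Cldn4, a tight junction claudin, was at 209 and 94.1 TPM (-1.14), while the epithelial adhesion molecule Epcam was at 332 and 407 TPM (0.29). Over 17 keratin and junction genes, 14 were below 0, with a median of -0.38. In 10 of the 17 the day 21 vehicle level was the highest of the 7 libraries, against 10.5% of all genes compared and 18.0% of those below 0. Krt17, a keratin of wounded and basal epithelium, was at 113 and 22.2 TPM (-2.30), against 1.3, 1.1 and 13.0 TPM in the libraries before day 21. The cornified envelope genes Sprr1a, at 78.7 and 24.4 TPM (-1.65), and Sprr2a2, at 54.0 and 13.9 TPM (-1.88), were lower too, while Ivl, involucrin, was at 28.5 and 31.2 TPM (0.13). Sprr2a2 has near-identical copies, and the counting of shared reads is not given here.

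Genes of the 2 alveolar epithelial cell types stood on opposite sides of 0. Of 15 alveolar type 2 genes, 11 were above 0, with a median of 0.21. Sftpc, surfactant protein C (chromosome 14, 70520941 to 70524081), was at 2429 TPM with vehicle and 4900 TPM with DC101 (1.01), against 8484 TPM in the day 3 vehicle library and 4058 and 4162 TPM under gefitinib. Napsa, the protease that processes surfactant, was at 1014 and 1912 TPM (0.91), Lamp3, a lamellar body protein, at 173 and 278 TPM (0.68), and Slc34a2, a phosphate transporter, at 297 and 411 TPM (0.47). Sftpd, surfactant protein D, was at 725 and 574 TPM (-0.34), and the lineage factor Nkx2-1 at 238 and 201 TPM (-0.24). Of 14 alveolar type 1 genes, 13 were below 0, with a median of -0.52. Gprc5a, a retinoic acid induced receptor, was at 291 and 143 TPM (-1.02), Cldn18 at 171 and 88.0 TPM (-0.95), and Emp2 at 353 and 211 TPM (-0.74). Clic5, the 1 gene above 0 (1.39), was at 50.9 TPM in the 4H2 library, which held little epithelial RNA.

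All 3 subunits of the epithelial sodium channel, which draws fluid off the alveolar surface, were lower. Scnn1b was at 17.4 and 4.4 TPM (-1.77). Scnn1a, at 10.1 and 2.8 TPM (-1.55), and Scnn1g, at 10.5 and 2.9 TPM (-1.56), were chosen after their values were seen. Under gefitinib the 3 genes had lain between 14.0 and 41.1 TPM. Pyy, a gut hormone, was at 13.8 and 1.9 TPM (-2.35), the lowest difference of the named genes, and other genes of gastric and gut lineage were also lower, 11 of 13 below 0 with a median of -0.36. Hnf4a, a gut and liver factor, was at 52.3 TPM with vehicle and 31.5 TPM with DC101 (-0.71).

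Some of the genes that were still at least 2-fold higher after the muscle subtraction are named here, chosen after their values were seen. The 4H2 and combination libraries held little of them, with Car4 at 1.5 and 1.0 TPM and Cd177 at 0.4 and 4.8 TPM. The subtraction could therefore hardly lower these genes, and their place after it is no further evidence. Car4, a membrane carbonic anhydrase, was at 18.5 TPM with vehicle and 77.2 TPM with DC101 (2.00), against 252 TPM at day 3 without gefitinib and 5.0 and 5.4 TPM under gefitinib. Chil1, a secreted chitinase-like protein, was at 91.3 and 234 TPM (1.35), Cd177 at 83.9 and 185 TPM (1.13), and Dlk1, a relative of the Notch ligands, at 172 and 374 TPM (1.12). Cd177 and Dlk1 were at 281 and 823 TPM in the day 3 vehicle library. Elovl4, an elongase of very long fatty acids, stood apart: it was at 8.3 TPM with DC101, 3.6 TPM in the combination and at most 0.8 TPM in the other 5 libraries.

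Of 26 proliferation genes none reached 1.5-fold in either direction, and the median was -0.10, with Mki67 at 90.3 and 74.3 TPM (-0.28). The 23 genes that report EGFR and MAPK activity had a median of -0.26, with 17 below 0 and 2 at least 2-fold lower. The EGFR ligand Hbegf, at 61.5 and 24.0 TPM (-1.32), was the lowest of the list. Areg, another EGFR ligand, was at 179 and 101 TPM (-0.82), short of 2-fold. In 13 of the 23 the day 21 vehicle library was the highest of the 7, against 10.5% of all genes compared and 18.0% of those below 0. Hypoxia response genes had 15 of 25 members above 0 and a median of 0.07. Egln3, an oxygen sensor that hypoxia induces, was at 8.9 and 15.8 TPM (0.76) and Bnip3, a mitophagy receptor, at 39.6 and 62.7 TPM (0.65), but both were higher still with 4H2, at 30.3 and 142 TPM, and after the muscle subtraction their differences were 0.23 and -0.04. Lox, a collagen crosslinker that hypoxia also induces, was at 89.3 and 51.4 TPM (-0.78).

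**Figure D4:**
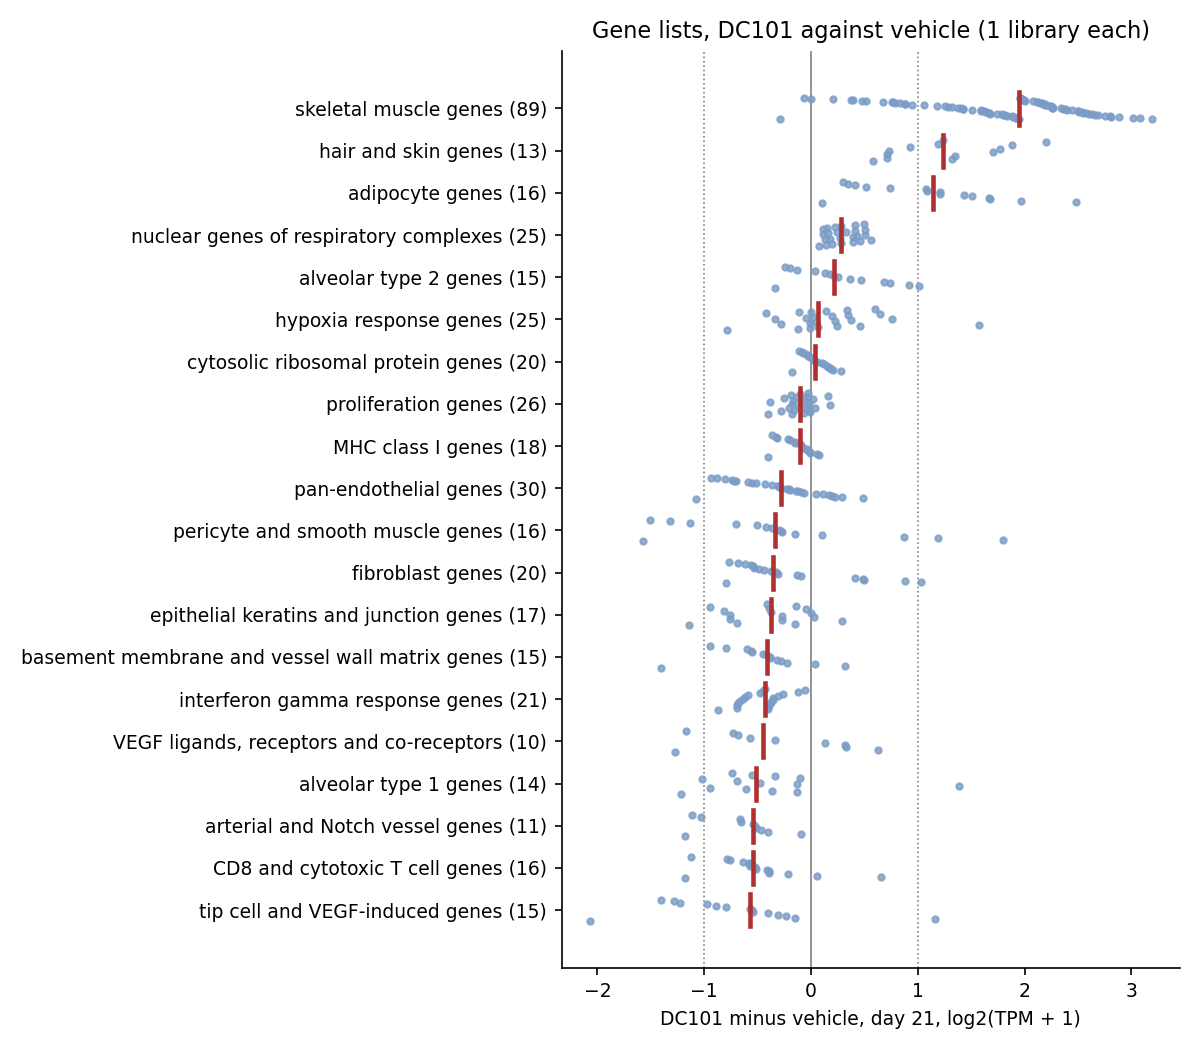
Difference between the DC101 and vehicle libraries (x axis, log2 of TPM + 1) for the members of 20 gene lists (1 point for each gene; the number compared in brackets; red bars are medians; dotted lines mark 2-fold). Muscle, hair and adipocyte lists lie to the right, hypoxia, ribosomal and proliferation lists near 0, and vessel, T cell and alveolar type 1 lists to the left.

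Cytotoxic T cell genes were lower with DC101. Of 16, 14 were below 0, 5 at least 1.5-fold lower and 2 at least 2-fold lower, with a median of -0.55. Cd8a, which marks CD8 T cells, was at 30.6 TPM with vehicle and 21.1 TPM with DC101 (-0.52). Ifng, the cytokine interferon gamma, was at 10.1 and 4.1 TPM (-1.12), Gzma, a granzyme, at 5.8 and 2.0 TPM (-1.18), and Nkg7, a cytotoxic granule protein, at 93.9 and 55.0 TPM (-0.76). Pdcd1, the gene of the checkpoint receptor PD-1, was at 27.5 TPM with vehicle and 15.8 TPM with DC101 (-0.76), and its ligand Cd274 at 36.0 and 23.1 TPM (-0.62). T cell receptor and CD4 genes were below 0 in 20 of 23 cases with a median of -0.28. The general T cell markers Cd3d, Cd3e, Cd3g, Cd8a and Cd4 summed to 173 TPM with vehicle and 134 TPM with DC101.

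Interferon response genes were lower with them. All 21 interferon gamma response genes compared were below 0, 8 of them at least 1.5-fold and none 2-fold, with a median of -0.43. Cxcl9, a T cell chemokine, was at 112 and 60.8 TPM (-0.87), Gbp2, a guanylate-binding protein, at 373 and 231 TPM (-0.69), and Cxcl10 at 67.5 and 41.7 TPM (-0.68). Type I interferon response genes were below 0 in 21 of 22 cases, with a median of -0.31. MHC class I genes were below 0 in 16 of 18, but their median was -0.10.

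Myeloid genes were mixed. The median of macrophage and monocyte genes was -0.07, and among them Fcgr4, an activating antibody receptor, was at 116 and 72.1 TPM (-0.67). Alternative activation genes had 3 of 11 at least 2-fold higher and none lower. Retnla, a product of macrophages and of fat, was at 47.5 TPM with vehicle and 129 TPM with DC101 (1.43), Folr2, a folate receptor of resident macrophages, at 7.6 and 17.8 TPM (1.13), and Cd163, a haemoglobin scavenger receptor, at 3.3 and 7.7 TPM (1.02). After the muscle subtraction none of the 3 was 2-fold higher, with 0.32 for Retnla, 0.20 for Folr2 and 0.31 for Cd163. Arg1 and Mrc1 differed little (0.04 and 0.13).

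DC101 was also given on top of 4H2, and that pair of libraries, the combination and 4H2 alone, shares no library with the first pair. The pair was matched for muscle (list median 0.06) but not for tumor: keratin and junction genes had a median of 2.35 and proliferation genes of 0.995 in favour of the combination. Nor was it matched for skin: hair and skin genes had a median of 4.62, with 11 of 13 at least 2-fold higher. They made up 0.00456% of all TPM with 4H2 and 0.0762% in the combination. Over all 13997 genes, 692 were at least 2-fold higher in the combination (4.94%) and 65 lower (0.464%), with a median of 0.06. Of 8851 genes with at least 10 TPM in either library of both pairs, 9 were at least 2-fold higher in both (0.102%) and 3 at least 2-fold lower in both (0.0339%). At 1.5-fold, 29 were higher in both (0.328%) and 25 lower in both (0.282%). Opposite directions were seen as well: 2 genes were at least 2-fold higher alone and lower on top of 4H2 (0.0226%), and 7 were lower alone and higher on top of 4H2 (0.0791%). At 1.5-fold these counts were 9 (0.102%) and 45 (0.508%). Across these genes Pearson's r between the pairs was 0.0038 and Spearman's rho 0.06, a description across genes, which are not independent replicates.

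The 10 named genes lower in both pairs were Col12a1, Col8a1, Ifng, Sirpb1b, Igfbp3, Fmod, Timp3, Notch4, Cd300lf and Cxcl10. Col12a1, a collagen of fibril surfaces (chromosome 9, 79598987 to 79721141), was at 258 TPM with vehicle and 91.1 TPM with DC101 (-1.49), and at 38.3 TPM with 4H2 and 15.2 TPM in the combination (-1.28). Col8a1, a short-chain collagen of vessel walls, was at 104 and 45.0 TPM (-1.19) and at 44.2 and 17.7 TPM (-1.27). Ifng was at 14.5 TPM with 4H2 and 6.0 TPM in the combination (-1.15), and these 3 are the genes at least 2-fold lower in both. In the second pair Igfbp3 differed by -0.83, Notch4 by -0.76 and Cxcl10 by -0.90. Timp3, a protease inhibitor that also blocks VEGF binding to VEGFR2, differed by -0.77 in the first pair and -1.09 in the second. The myeloid receptors Sirpb1b (-1.13 and -0.97) and Cd300lf (-1.13 and -0.74) were also lower in both.

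Cytotoxic T cell genes had 13 of 16 members below 0 in both pairs, against 24.3% of all genes, and the list median in the second pair was -0.50. This was not particular to them: it held for 19 of 22 type I interferon, 15 of 18 MHC class I and 15 of 21 interferon gamma response genes. Of the tip cell genes 4 of 15 were below 0 in both pairs, and of the pan-endothelial genes 11 of 30. In the second pair the tip cell list had a median of 0.02, the pan-endothelial list of 0.03, the arterial list of -0.04, the lymphatic list of 0.08, the venule list of 0.32 and the VEGF list of -0.21. Kdr was at 10.7 TPM with 4H2 and 9.3 TPM in the combination (-0.18), so that all 3 antibody libraries held less Kdr than the day 21 vehicle library.

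Among the genes higher in both pairs, Retnla was at 146 TPM with 4H2 and 414 TPM in the combination (1.499), and Folr2 at 21.9 and 52.9 TPM (1.23). Inmt, a methyltransferase of lung and stroma, was at 3.5 and 20.8 TPM in the first pair (2.28) and at 21.2 and 80.2 TPM in the second (1.87). Clec3b, tetranectin, was at 9.2 and 34.1 TPM (1.78) and at 62.5 and 132 TPM (1.06). After the muscle subtraction the first-pair differences of Inmt and Clec3b were 0.87 and 0.33. Sftpc (2.29) and Dlk1 (2.32) were higher in the second pair too, where the epithelial markers as a list were higher.

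**Figure D5:**
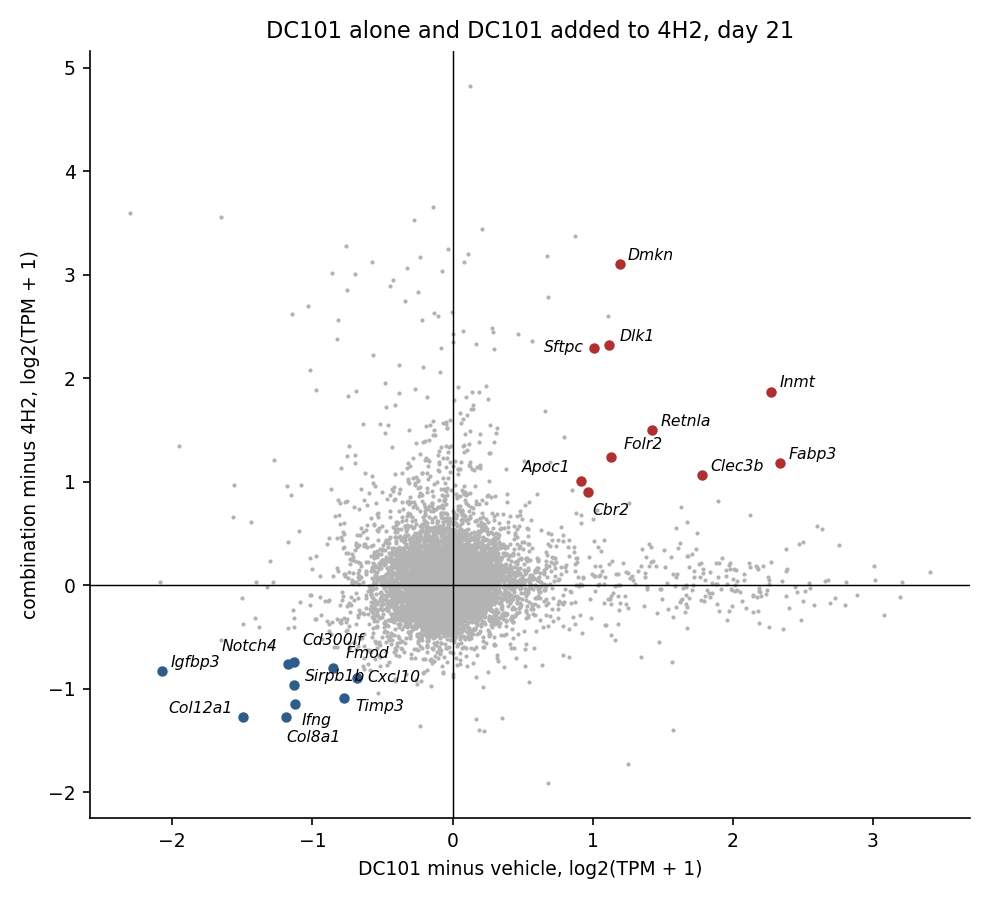
Difference of DC101 over vehicle (x axis) against that of the combination over 4H2 (y axis), both in log2 of TPM + 1, for the 8851 genes with at least 10 TPM in either library of both pairs (1 point for each gene). The 10 genes highest in both pairs are red and the 10 lowest in both are blue; most genes with a large difference in one pair lie near 0 in the other.

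The lower genes were also placed among all 7 libraries, as a description only, since they were chosen for a vehicle level above that of DC101. Of the 156 genes at least 2-fold lower, 67 (42.9%) had their highest level of the 7 libraries in the day 21 vehicle library. The share was 18.0% of all genes below 0 and 10.5% of all genes compared. DC101 held the lowest level of the 7 libraries for 23 of the 156, against 4.32% of all genes compared. The 604 genes with that lowest level are, by definition, all among the 8140 genes below 0. Of the 15 lowest named genes, 9 were highest in the vehicle library, Tnc, Krt17 and Spp1 among them, whereas Igfbp3 was lowest with DC101. Differences of this kind rest on the 1 vehicle library of day 21, which has no replicate.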

How the data were processed

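RNA of 7 tumor libraries, 1 for each group, was sequenced after depletion of ribosomal RNA with a directional kit, per the labels' protocols. The deposited values are TPM, which the authors rounded to 1 decimal and which sum to about 1000000 in each library. The submitters' processing notes name the build GRCm38.p6; which aligner, counting tool and annotation were used is not given in the sources here. Since TPM values hold no read totals, depth is unknown and no counting interval is given. With Python 3.11.15, pandas 2.3.3 and numpy 2.4.6, differences were computed as log2 with a pseudocount of 1 TPM for genes with a mean of at least 1 TPM. No test is possible with 1 library a group. The calculation was checked by planting known fold changes in a copy of the vehicle library's values. That covers the arithmetic only and says nothing of the spread between libraries. The members and the 50 gene lists were chosen with earlier results of these data known; 990 of 1001 entries were in the file, 2 of them under an older symbol, and 914 were compared. A list is described by counts and its median beside all genes. Named genes were the 15 highest and 15 lowest with at least 10 TPM in either library, the 10 highest and 10 lowest in both DC101 pairs, all VEGF and tip cell genes, and up to 4 genes of each other list with its median and 2 against it, at 5 TPM or more; predicted, noncoding, ribosomal, histone and antigen receptor genes were left out of the first 2 groups, and 6 genes (Egfr, Kdr, Pdcd1, Cd274, Cd8a and Vegfa) were added. Genes outside this rule are list members given as further examples or are marked as chosen after their values were seen. Alternatives were other pseudocounts, filters and scalings. Coordinates and promoters are from RefSeq on the same build.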

Additional observations from a re-analysis of the deposited data

Results flagged for a closer look

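For 5 lists the difference that came with DC101 pointed one way against vehicle and the other way on top of 4H2, with medians at least 0.25 from 0 in both pairs. The difference between the pairs was not tested, with 1 library a group. The genes that report EGFR and MAPK activity had medians of -0.26 against vehicle and 0.42 on top of 4H2. Epithelial keratins and junction genes had medians of -0.38 and 2.35. Alveolar type 1 genes had medians of -0.52 and 0.43, and gastric and gut lineage genes of -0.36 and 0.44. Erythroid and platelet genes had medians of -0.32 and 0.61 over 7 genes, some of which have near-identical copies. Epcam, at 3.0 TPM with 4H2 and 20.8 TPM in the combination, moved with the epithelial lists in the second pair, and its part in these differences was not tested.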

How the results depend on the processing

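The count of genes at least 2-fold higher with DC101 was 437 as reported. It was 659 with a pseudocount of 0.1 TPM, 203 with a pseudocount of 5 TPM and 58 after subtracting RNA scaled to the muscle gained, an alternative chosen after seeing the data. It stayed within 1.5 times of 437 without a filter, with a mean of at least 5 TPM, after median-of-ratios rescaling and without muscle genes (344 to 465). The count of lower genes, 156, became 298 and 51 with these pseudocounts and 93 with a mean of at least 5 TPM, which tests fewer genes. It was between 127 and 179 under the other 3. A larger pseudocount shrinks the differences of low genes by construction.

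Of the 30 lists with a median at least 0.25 from 0, 4 above and 26 below, these changed sign. With a mean of at least 5 TPM, which drops low members, the VEGF list went to 0.13, the lymphatic list to 0.66 and the mast cell and eosinophil list to 0.12. The last was also at 0.077 when the mean of its members was used. The muscle subtraction gave -0.77 for muscle genes, -0.11 for adipocyte genes and -0.18 for respiratory complex genes; the cause was not tested for muscle genes, of which Tnnc2 (1.13) and Actn3 (1.12) were still at least 2-fold higher. Rescaling by median of ratios moved no list median by more than 0.1. No paired analysis was possible because each group has 1 library and the replicate numbers pair nothing. Depth is unknown, which limits what can be said of genes under a few TPM.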

Other observations

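Genes of the antioxidant factor NRF2 had a median of -0.32 over 19 genes, 15 of them below 0. Cbr3, a carbonyl reductase, was at 70.4 TPM with vehicle and 37.8 TPM with DC101 (-0.88), and Akr1b8, an aldo-keto reductase, at 188 and 107 TPM (-0.80). The secreted glutathione peroxidase Gpx3 was the opposite, at 585 and 916 TPM (0.65), or 0.10 after the muscle subtraction. In 8 of the 19 the day 21 vehicle library held the highest level of the 7, against 10.5% of all genes compared and 18.0% of those below 0.

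Secretory airway genes differed among themselves. Lcn2, the iron-binding lipocalin of epithelium and neutrophils, was at 268 TPM with vehicle and 491 TPM with DC101 (0.87), and Bpifa1, a secreted airway protein, at 3235 and 5159 TPM (0.67). Slpi, a protease inhibitor of the same secretions, was at 57.0 and 14.0 TPM (-1.95). Over 15 genes 10 were above 0, with a median of 0.14. C3, the central complement protein, was at 244 and 387 TPM (0.66), or -0.05 after the muscle subtraction, and the complement list had a median of 0.04.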
